A study of Mus musculus with 86 samples.

Results

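Angiopoietins and vascular growth factors are secreted proteins that act on blood vessels, and 10 of their genes were followed in mouse hearts: Angpt1, Angpt2, Vegfa, Vegfb, Vegfc, Pgf, Fgf1, Apln, Pdgfb and Igf1. Every probe set that the platform's annotation gives to one of these symbols was taken, without regard to its values, which gave 21 of 45101 probe sets (10 of 18194 genes with a symbol of their own there). Of these 21, 20 were tested, and 1 for Angpt2 (1459636_at) was below the filter on dim probe sets, with group means between −0.87 and −0.35 on the log2 scale. Each probe set is described apart, because those of 1 gene did not always move alike.

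RNA of hearts was hybridised to 86 arrays. The hearts came from FVB and C57BL/6 (labelled WT), from B2KO, a name the labels do not spell out, and from B6129SF2/J (labelled WT), a hybrid line. Mice of each line, assigned at random, either were infused for 14 days with isoproterenol, which activates beta-adrenergic receptors (120 µg/g/day), or were left untreated, so no group received a vehicle infusion. FVB had 12 treated arrays and 10 untreated, C57BL/6 had 10 and 11, B6129SF2/J had 12 and 10, and B2KO had 10 of each once a duplicate pair was averaged. The study describes systolic dysfunction after infusion in FVB and B2KO, and diastolic dysfunction in C57BL/6. The labels number the arrays within groups without stating that each was 1 mouse, so p-values measure the spread between arrays. Age and sex are not given in the sources used here.

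In a vessel, Angpt1 from perivascular and muscle cells activates the endothelial receptor Tie2 (gene Tek) and keeps the endothelium quiescent, whereas Angpt2 can oppose it on the same receptor. Vegfa, Vegfb, Vegfc and Pgf act through the receptors Flt1, Kdr and Flt4, and the Vegfa gene is a known target of the hypoxia-inducible factors. Endothelial cells release Pdgfb to recruit pericytes and Apln to act on its own receptor, and Fgf1 and Igf1 also act on muscle cells and fibroblasts.

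Values are log2 intensities on a scale where the median of each array is 0. Changes are treated minus untreated group means, ± SE, and a change was called where the limma adjusted p was under 0.05. The quality of the arrays differed. The median of an array's correlations with all other arrays was 0.573 for treated B2KO replicate 10, called the failed array below, and at least 0.8305 for the rest. The difference between 3′ and 5′ Gapdh probe sets, a sign of RNA degradation, was above 2 log2 units in 5 arrays. By 200 strain markers 5 treated arrays lay nearer another line than their own: FVB replicate 2, B2KO replicates 5, 6 and 7, and the failed array. The markers were chosen from the untreated arrays of these data, and distances are to the means of those arrays. Untreated arrays are thus drawn toward their own line. The distance to the own line was 3.00 for FVB replicate 2 (1.01 to C57BL/6) and 1.66 for B2KO replicate 7, but 0.718 and 0.792 for B2KO replicates 5 and 6, beside 0.707 to 0.77 for the other 6 treated B2KO arrays. The 8 arrays in doubt below are the failed array, these replicates 2 and 7, and the 5 with a large Gapdh difference. Untreated B2KO replicate 1 read 7.53 for Xist, expressed from the inactive X chromosome of females, and every other array at most 2.17. Lung epithelium markers summed to 5.02 or more in 7 arrays (untreated B6129SF2/J replicates 1, 6 and 10, untreated B2KO replicates 3 and 5, treated FVB replicates 3 and 9) and to at most 1.69 elsewhere. All were kept. Leaving out the 5 arrays nearer another line, the array with Xist or the 7 with lung markers was chosen after the data were seen. Cardiomyocyte markers were high in all groups, and none of the 7 tested changed by adjusted p except Tnni3 in C57BL/6, which rose by 0.57.

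Isoproterenol was followed by lower Angpt1 in all 4 lines at 1 of its probe sets, by higher Pdgfb in C57BL/6 and by higher Apln in FVB. These were the only calls made among the members in single lines: 2 in FVB (1.14% of all 24885 probe sets tested were called), 3 in C57BL/6 (23.2%), 1 in B2KO (0.848%) and 1 in B6129SF2/J (5.06%). By direction, FVB had 1 member probe set higher (0.627% of all) and 1 lower (0.514%), and C57BL/6 had 2 higher (13.3%) and 1 lower (9.89%). B2KO had none higher (0.0522%) and 1 lower (0.796%), and B6129SF2/J had none higher (2.35%) and 1 lower (2.7%). The members' share in C57BL/6 was thus no higher than that of all probe sets. In the effect averaged over the 4 lines, 6 of 20 member probe sets were called (20% of all), 2 of them higher (7.73%) and 4 lower (12.3%). The members' median change was −0.05 in FVB, −0.09 in C57BL/6, −0.29 in B2KO and 0.01 in B6129SF2/J, and the median of all probe sets was −0.01, 0.08, −0.23 and −0.01. Without the failed array the B2KO medians were −0.04 and −0.06.

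**Figure D1:**
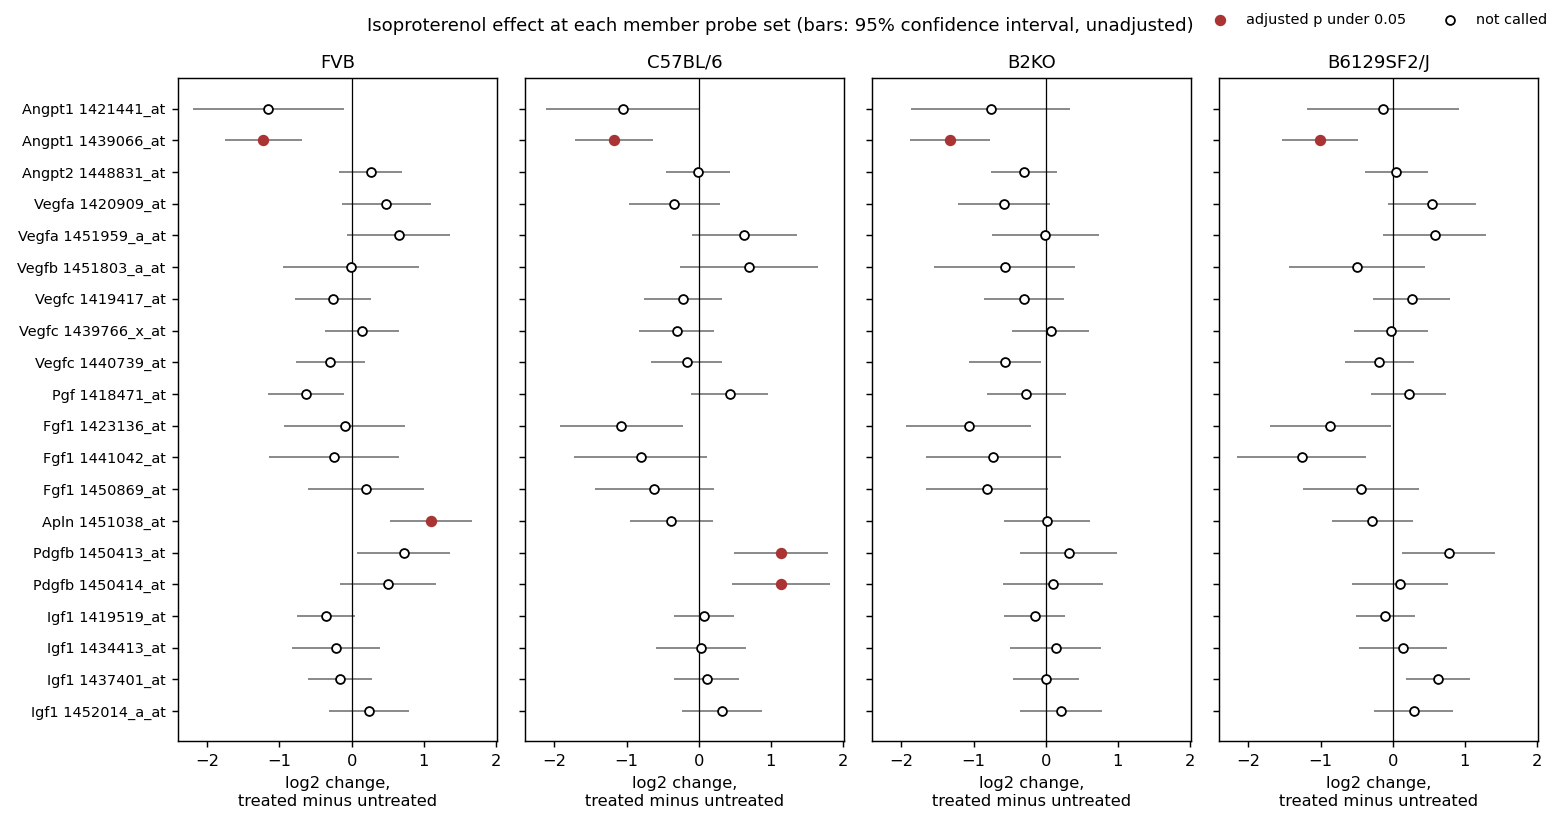
Isoproterenol effect (log2 change, treated minus untreated) at the 20 tested member probe sets, 1 panel per line, with unadjusted 95% confidence intervals. Filled points passed the adjusted threshold: Angpt1 1439066_at in all 4 panels, Apln in FVB and both Pdgfb probe sets in C57BL/6.

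Angpt1, the ligand that activates Tie2, was read by a pair of probe sets. At 1439066_at, FVB arrays ran from 3.20 through a median of 4.06 to 4.63 untreated and from 2.06 through 2.59 to 4.38 treated. The change was −1.22 ± 0.27 (limma adjusted p = 0.00485), and 1 of 12 treated arrays was above the untreated mean. That array, replicate 2, was the one whose strain markers lay nearest C57BL/6, and the groups overlapped. Without the 3 arrays in doubt by failure or strain the change in FVB was −1.36.

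In C57BL/6, Angpt1 at 1439066_at ran from 3.68 through 5.14 to 5.55 untreated and from 2.89 through 3.64 to 4.64 treated. The change was −1.17 ± 0.27 (limma adjusted p = 0.000917). None of the 10 treated arrays reached the untreated mean, although the groups overlapped. In B6129SF2/J the arrays ran from 4.19 through 4.90 to 5.32 untreated and from 3.00 through 3.64 to 4.77 treated. The change was −1.01 ± 0.27 (limma adjusted p = 0.0119), with 1 of 12 treated arrays above the untreated mean. The highest treated array there was replicate 7, which was also among those with a large Gapdh difference. Markers of B cells fell in the same comparison (Ighm, Cd79a and Cd79b, 3 of 3, median −1.08), as did Scgb1a1 of 2 lung epithelium markers. The summed lung markers ran from 0.20 to 8.90 in untreated and from 0.05 to 1.35 in treated B6129SF2/J hearts. Without the 7 arrays with lung markers the Angpt1 change was −1.09 (adjusted p = 0.0305).

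B2KO hearts spread more after treatment. Angpt1 at 1439066_at ran from 3.77 through 4.38 to 4.63 untreated and from 0.10 through 2.94 to 4.38 treated. The lowest was the failed array, and 2 of 10 treated arrays were above the untreated mean. The change of −1.32 ± 0.28 (limma adjusted p = 0.00862) became −1.0 (adjusted p = 0.0412) without the failed array, and −1.14 (0.0075) without the 5 arrays nearer another line, among them replicate 5, the highest treated one. Fitted to the B2KO arrays alone, the same change had an adjusted p of 0.674.

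Averaged over the lines, Angpt1 at 1439066_at changed by −1.18 ± 0.14 (limma adjusted p = 1.13e-10). None of the 6 differences between lines passed for it, with 95% intervals between −1.08 and 0.93, so differences of about 1 log2 unit between lines cannot be told from none. Leaving out any 1 array changed no call of this probe set.

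The other Angpt1 probe set, 1421441_at, read dimmer and spread more, with group SDs from 0.35 to 1.67. It changed by −1.15 ± 0.53 in FVB (limma adjusted p = 0.391), −1.05 ± 0.54 in C57BL/6 (0.15), −0.76 ± 0.55 in B2KO (0.459) and −0.14 ± 0.53 in B6129SF2/J (0.935). Averaged over lines the change was −0.78 ± 0.27 and was called (adjusted p = 0.0298). Without untreated C57BL/6 replicate 11, one of the arrays with a large Gapdh difference, the C57BL/6 change was −1.45 (adjusted p = 0.0332). With array weights it was called in FVB, C57BL/6 and B2KO (limma adjusted p = 0.0124, 0.0114 and 0.0152). Without the 8 arrays in doubt it was called in FVB and C57BL/6 (0.0343 and 0.0149). In B6129SF2/J no alternative called it. Across 84 arrays with group means subtracted, the pair of probe sets had r = 0.152 and rho = 0.287 (permutation p adjusted over 16 pairs of 0.18 and 0.00946), and r = 0.244 without the 2 arrays farthest from the median. The pair thus followed each other weakly from array to array. Both gave negative changes in each line, but that of 1421441_at in B6129SF2/J was smaller than its SE. Leaving out 1 array there moved it between −0.347 and 0.0189, so its sign is not settled.

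**Figure D2:**
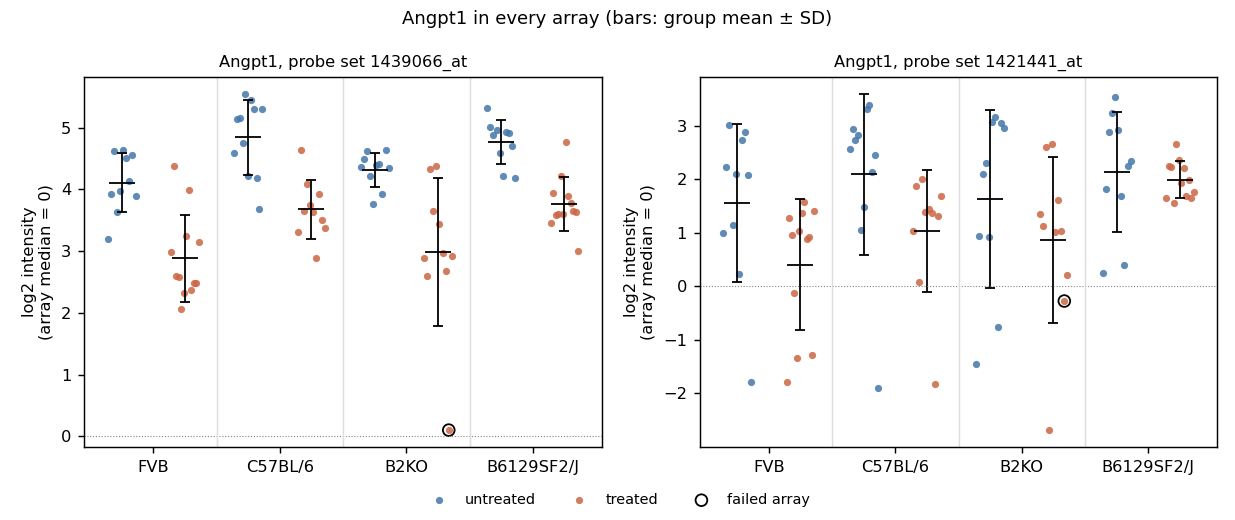
Log2 intensity of Angpt1 in every array at each of its probe sets, with group means ± SD, untreated in blue and treated in red. At 1439066_at treated arrays sit lower in every line. At 1421441_at the groups overlap, with treated medians lower in every line, least so in B6129SF2/J.

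By the naming rule, the genes most like Angpt1 at 1439066_at over 84 arrays, with line means subtracted, were Fbp2 (r = 0.799), a muscle fructose bisphosphatase, Frem2 (0.793), a basement membrane protein, and Tmem50b (0.788). All 84 arrays are of treated and untreated hearts, so a shared isoproterenol effect enters these values. With group means subtracted r was 0.574, 0.522 and 0.673.

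Angpt2, the context-dependent antagonist, was not called in any line. At 1448831_at group means ran from 0.85 to 1.47, and its changes from −0.30 ± 0.23 in B2KO to 0.27 ± 0.22 in FVB. Averaged over lines the change was 0.00 ± 0.11, with a 95% interval from −0.22 to 0.22. A change as large as that of Angpt1 was thus outside the interval at this probe set. It read close to the array median, however, and the other Angpt2 probe set was below the filter. The pair had r = 0.00614 and rho = 0.00267 across 84 arrays with group means subtracted. A dim probe set that its partner does not follow cannot decide whether Angpt2 itself changed as much.

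Apln, the peptide ligand of the apelin receptor, rose in FVB. Its probe set 1451038_at ran from 0.49 through 2.14 to 3.12 in untreated FVB hearts and from 1.81 through 3.33 to 3.99 in treated ones. The change was 1.10 ± 0.28 (limma adjusted p = 0.0263), with 11 of 12 treated arrays above the untreated mean. The lowest treated array was replicate 2, the one in doubt by strain. Blood markers moved in the same comparison: both erythroid markers tested rose in FVB, Alas2 by 1.96 ± 0.53 and Slc4a1 by 1.46 ± 0.39. Of all probe sets 0.627% were called higher there. The summed level of these markers ran from 2.71 to 6.89 untreated and from 3.43 to 8.16 treated. In C57BL/6, 1 of these 2 rose as well (13.3% of all), with a list median of 1.01 beside 1.71 in FVB. None was called in B2KO or B6129SF2/J. Of 6 macrophage markers Lgals3 rose in FVB (1.55 ± 0.34), as it did in the other 3 lines. Their part in the Apln result was not tested. The other lines gave −0.38 ± 0.29 in C57BL/6, 0.02 ± 0.30 in B2KO (0.30 without the failed array) and −0.28 ± 0.28 in B6129SF2/J, none of them called.

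The effect on Apln in FVB exceeded that in C57BL/6 by 1.48 ± 0.41 (limma adjusted p = 0.033). Against B6129SF2/J the difference was 1.38 ± 0.40 (adjusted p = 0.258) and against B2KO 1.08 ± 0.41 (0.684; 0.80 without the failed array), and neither passed. Untreated FVB hearts had less Apln than untreated C57BL/6 hearts (−1.20 ± 0.29, limma adjusted p = 0.00172), and untreated C57BL/6 hearts had more than B2KO (0.87 ± 0.29, adjusted p = 0.034). Treated FVB and treated C57BL/6 means were 3.19 and 2.92. The FVB effect and the baseline difference use the same untreated FVB arrays.

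The Apln calls were close to the threshold. The FVB effect was lost when FVB was fitted alone (adjusted p = 0.0695), and when any of 6 of its 22 arrays was left out: untreated replicate 2, 5 or 10, or treated replicate 4, 8 or 9, with changes of 0.92 to 1.05 and adjusted p of 0.0524 to 0.107. It was lost too without the 7 arrays with lung markers (1.07, adjusted p = 0.0643), as was the difference from C57BL/6 (1.45, 0.0611). That difference was also lost without a filter (adjusted p = 0.0511) and without untreated FVB replicate 5, treated FVB replicate 8, or untreated C57BL/6 replicate 1, 2, 3 or 4 (adjusted p 0.0507 to 0.0635). Without the 8 arrays in doubt both were larger, at 1.15 (adjusted p = 0.000311) and 1.68 (0.00124). The baseline call against B2KO was lost without any of 7 of 41 arrays (C57BL/6 replicates 1 to 4 and B2KO replicates 1, 5 and 8, adjusted p 0.0584 to 0.109; B2KO replicate 1 is the array with Xist), without the arrays with lung markers (0.0574) and in the pair of lines fitted alone (0.0895).

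Apln is the member whose effect differed between lines, so the 250 bases before its start are shown (RefSeq, GRCm38.p6, minus strand, chrX:48034854-48035103). The window was searched on both strands for 3 motifs: the cAMP response element core TGACG, the hypoxia response core ACGTG and the E-box CACGTG, which contains ACGTG. None of these letters occurs in the window, which is therefore printed without capitals.
Apln: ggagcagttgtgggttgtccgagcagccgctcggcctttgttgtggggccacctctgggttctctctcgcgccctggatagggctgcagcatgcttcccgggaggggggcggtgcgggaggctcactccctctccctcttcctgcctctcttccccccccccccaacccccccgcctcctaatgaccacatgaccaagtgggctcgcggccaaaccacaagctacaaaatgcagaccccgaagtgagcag
Of 32851 mouse promoter windows of this length, 17.8% held TGACG, 16.6% ACGTG and 6.02% CACGTG.

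Pdgfb, which endothelial cells release to hold pericytes, rose in C57BL/6 at both of its probe sets. At 1450413_at untreated C57BL/6 arrays ran from −0.33 through 1.98 to 2.32 and treated arrays from 1.81 through 2.50 to 3.40. The change was 1.14 ± 0.33 (limma adjusted p = 0.00753), and all 10 treated arrays were above the untreated mean, with some overlap between the groups. At 1450414_at the arrays ran from 2.50 through 3.66 to 4.31 untreated and from 3.60 through 4.57 to 6.39 treated. The change there was 1.14 ± 0.34 (adjusted p = 0.0103), with 9 of 10 treated arrays above the untreated mean. This second call was lost with quantile normalization (adjusted p = 0.0502).

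In the other lines Pdgfb was not called. At 1450413_at the changes were 0.72 ± 0.32 in FVB (adjusted p = 0.374), 0.77 ± 0.32 in B6129SF2/J (0.166) and 0.32 ± 0.34 in B2KO (0.645), where it was 0.58 without the failed array. The untreated mean was exceeded by 11 of 12, 11 of 12 and 7 of 10 treated arrays. Without the 8 arrays in doubt the first was 0.67 (adjusted p = 0.0484) and the second 0.76 (0.0142). No difference between lines was called for it. Averaged over lines 1450413_at rose by 0.74 ± 0.16 (limma adjusted p = 0.000544) and 1450414_at by 0.46 ± 0.17 (0.0436). The latter call was lost without any of 23 of the 85 arrays, with adjusted p up to 0.0686, under quantile normalization (0.104), without a filter (0.0669) and without the arrays with lung markers (0.0578).

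**Figure D3:**
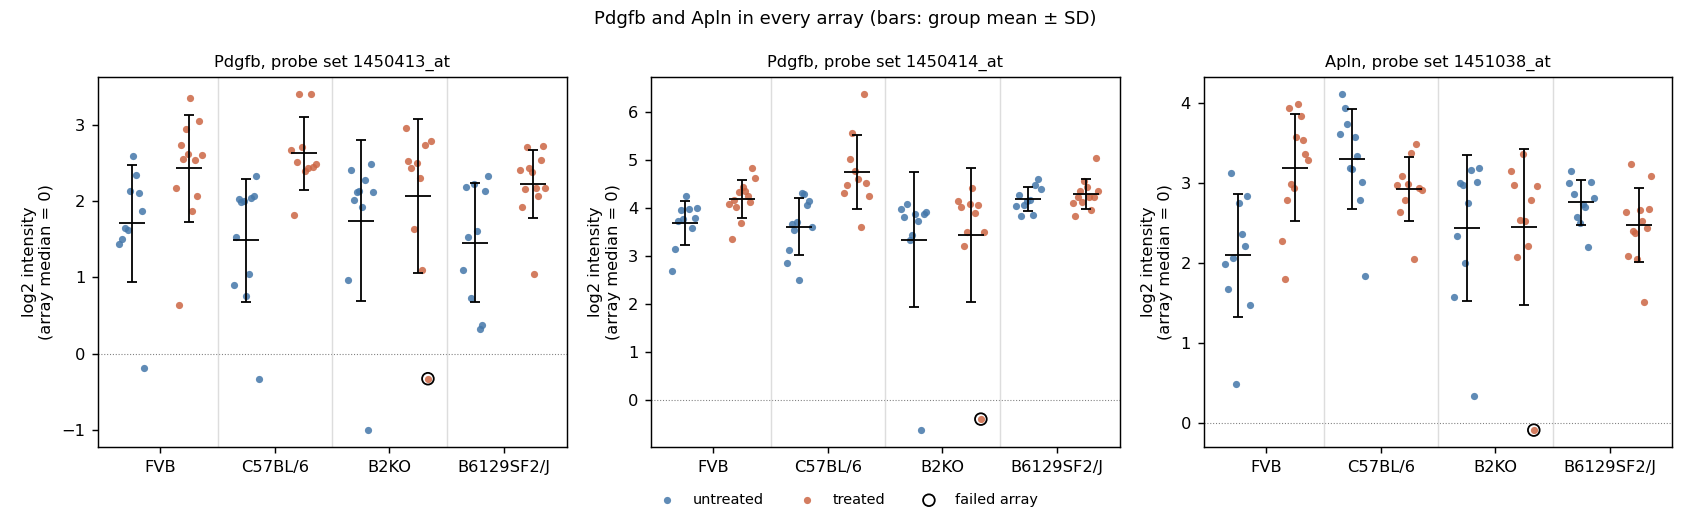
Log2 intensity of Pdgfb at both probe sets and of Apln in every array, with group means ± SD. Most treated C57BL/6 arrays sit above the untreated mean for Pdgfb, with overlap, and for Apln the treated FVB arrays, from 1.81 to 3.99, sit above most untreated ones, from 0.49 to 3.12.

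Some markers of endothelial cells rose with Pdgfb in C57BL/6, where 13.3% of all probe sets were called higher. In C57BL/6, 4 of 8 rose (Cldn5 by 1.51 ± 0.32, Eng by 1.37 ± 0.40, Cdh5 by 1.32 ± 0.37 and Pecam1 by 1.31 ± 0.45), while Vwf (0.03), Emcn (0.08), Erg (0.14) and Esam (0.52) were not called. The median of the 8 was 0.91, beside 0.08 for all probe sets. In FVB, B2KO and B6129SF2/J it was 0.32, −0.04 and 0.18, beside −0.01, −0.23 and −0.01. Of these lines only B6129SF2/J had a call, with 1 marker higher. The log2 of the summed intensity of the 8 ran from 6.84 to 8.19 in untreated and from 7.81 to 8.91 in treated C57BL/6 hearts, and none of the 8 was below the array median in any group. In hearts measured whole, more cells of a type and more RNA per cell cannot be told apart. The part of the markers in the Pdgfb result was not tested. Platelets carry Pdgfb too, and of 3 platelet markers tested Itga2b (1.59 ± 0.46) and Pf4 (0.67 ± 0.25) rose in C57BL/6.

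The genes most like Pdgfb at 1450413_at were Eng (r = 0.851), a coreceptor of endothelial cells, Slc6a8 (0.823), the creatine transporter, and Rasip1 (0.817), an endothelial regulator of vessel lumens, over 84 arrays with line means subtracted. With group means subtracted the values were 0.802, 0.774 and 0.782.

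Vegfa, the main angiogenic ligand of Kdr, was not called in any line. At 1451959_a_at the mean of FVB hearts was 3.47 untreated and 4.12 treated, a change of 0.65 ± 0.36, with 9 of 12 treated arrays above the untreated mean. C57BL/6 went from 3.39 to 4.02 (0.63 ± 0.37, 9 of 10 arrays), and B6129SF2/J from 3.38 to 3.96 (0.58 ± 0.36, 11 of 12 arrays). B2KO was at 3.63 untreated and 3.63 treated (0.00 ± 0.37, 7 of 10 arrays), and without the failed array, at 0.33, its change was 0.36. Averaged over lines the change was 0.47 ± 0.18 and just missed the threshold (limma adjusted p = 0.0575). It passed without the failed array (0.56, adjusted p = 0.00847) and in 6 of the other 14 alternatives, and leaving out 1 array brought it past in 17 of 85 cases. The other Vegfa probe set, 1420909_at, gave 0.48 ± 0.31 in FVB, −0.34 ± 0.32 in C57BL/6, 0.55 ± 0.31 in B6129SF2/J and −0.58 ± 0.32 in B2KO (−0.24 without the failed array), with 0.03 ± 0.16 on average. Across 84 arrays, with group means subtracted, the pair had r = 0.462 and rho = 0.404 (permutation p adjusted over 16 pairs 6e-05 and 0.000267), and r = 0.381 without the 2 farthest arrays.

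RefSeq gives Vegfa a pair of starts, and both windows are shown because the gene is the textbook hypoxia target among the members. The first window, at chr17:46032378-46032627 on the minus strand, holds none of the 3 motifs. The second, at chr17:46025164-46025413, lies inside the gene downstream of the first. In it the reverse complements of ACGTG and TGACG overlap, from 211 and 209 bases before the start, and are set in capitals.
Vegfa start 1: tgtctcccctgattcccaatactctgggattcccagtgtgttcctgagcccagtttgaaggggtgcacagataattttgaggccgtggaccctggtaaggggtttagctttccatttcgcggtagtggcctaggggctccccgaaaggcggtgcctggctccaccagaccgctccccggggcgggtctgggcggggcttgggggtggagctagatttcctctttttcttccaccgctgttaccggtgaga
Vegfa start 2: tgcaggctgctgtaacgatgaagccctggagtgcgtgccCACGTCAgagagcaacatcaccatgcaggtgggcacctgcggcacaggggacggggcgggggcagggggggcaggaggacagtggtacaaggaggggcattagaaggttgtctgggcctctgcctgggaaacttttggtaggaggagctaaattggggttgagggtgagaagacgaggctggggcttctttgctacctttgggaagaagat
No binding was measured here, and the matches are letters only. Motifs farther than 250 bases before a start were not searched for. The marked letters lie inside the gene and are not shown to be promoter sequence. Windows for Vegfb, Vegfc, Pgf and Igf1 held none of the motifs.

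Vegfb, a cardiac ligand of Flt1, had group means from 6.30 to 7.61 at 1451803_a_at. In C57BL/6 all 10 treated arrays were above the untreated mean (0.70 ± 0.48, limma adjusted p = 0.305), and in B6129SF2/J none of 12 was (−0.49 ± 0.47, 0.649). The B6129SF2/J change passed when that line was fitted alone (adjusted p = 0.00463) and with array weights (0.00784). The C57BL/6 change passed with array weights (0.51, adjusted p = 0.0391) and without the 8 arrays in doubt (0.48, 0.0316). The lowest untreated C57BL/6 array was replicate 11 (4.72), among those with a large Gapdh difference. In B2KO the SD was 2.09 untreated and 2.31 treated, against 0.24 to 0.84 in the other groups. Untreated B2KO replicate 8 read 1.06 and the failed array 0.02.

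Vegfc, the lymphatic ligand of Flt4, was read by 3 probe sets with changes between −0.56 and 0.26 in single lines, none of them called. At 1440739_at the 4 line changes were all negative, from −0.56 ± 0.25 in B2KO (−0.34 without the failed array) to −0.17 ± 0.25 in C57BL/6, with −0.30 ± 0.12 on average (limma adjusted p = 0.0659). Pgf, a ligand of Flt1, gave −0.63 ± 0.26 in FVB (adjusted p = 0.306) and 0.43 ± 0.27 in C57BL/6 (0.251). The untreated mean was exceeded by 2 of 12 treated arrays in FVB and 8 of 10 in C57BL/6.

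Fgf1, a growth factor kept in cardiac muscle, fell in the effect averaged over lines. The change was −0.78 ± 0.21 at 1423136_at (limma adjusted p = 0.00572), −0.76 ± 0.23 at 1441042_at (0.0125) and −0.42 ± 0.21 at 1450869_at (0.141, not called). At 1423136_at, B6129SF2/J arrays ran from 6.58 through 6.94 to 7.56 untreated and from 5.70 through 6.09 to 6.42 treated. These groups did not overlap, and the change of −0.87 ± 0.42 was not called in the fit of all groups (adjusted p = 0.257) but was in the line fitted alone (1.94e-05).

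In C57BL/6, Fgf1 at 1423136_at ran from 6.25 through 7.02 to 7.59 untreated and from 4.93 through 5.88 to 6.55 treated, with no treated array above the untreated mean. The change was −1.07 ± 0.43 (limma adjusted p = 0.058), and it was called in 8 of 17 alternatives, among them that without the failed array (0.0118). B2KO arrays ran from 5.95 through 6.59 to 6.95 untreated and from 0.06 through 6.01 to 6.54 treated (−1.07 ± 0.44, adjusted p = 0.177), again with none of 10 treated arrays above the untreated mean. The lowest value was the failed array, without which the B2KO change was −0.47 (adjusted p = 0.685). In FVB the change was −0.10 ± 0.42 (adjusted p = 0.973), with 8 of 12 treated arrays above the untreated mean. The FVB arrays ran from 2.81 through 5.90 to 6.96 untreated and from 2.49 through 5.53 to 6.43 treated. Very low FVB arrays, described below, enter both means, and the untreated mean of 5.28 lay under its median. The differences between FVB and the other lines were 0.97 for B2KO (0.37 without the failed array), 0.98 for C57BL/6 and 0.77 for B6129SF2/J, and none was called.

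The FVB arrays did not form 1 cloud for Fgf1. At 1423136_at untreated replicates 6, 7 and 8 read 3.12, 3.10 and 2.81, and treated replicates 9 and 10 read 3.01 and 2.49. The other 17 FVB arrays read 4.88 to 6.96. At 1450869_at the same 5 arrays were again the lowest of their groups, between 0.77 and 1.49. The dimmer 1441042_at showed this split in part. In untreated FVB 3 arrays read below 0 there, the lowest being replicate 7 (−2.66). Without replicate 6, 7 or 8 the untreated difference of FVB from C57BL/6 shrank from −1.32 to −1.11, −0.953 or −1.11. The lowest treated FVB array at this probe set was replicate 6 (−2.49), which is not among the 5. The SD of Fgf1 at 1423136_at in untreated FVB was 1.65, against 0.30 to 0.40 in the other untreated lines.

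Over the 22 FVB arrays with group means subtracted, the probe sets of other genes most correlated with Fgf1 at 1423136_at were those of Tnfaip8 (r = 0.869), Dmxl1 (0.843) and Rnf125 (0.827). All 3 lie on the chromosome of Fgf1 in the RefSeq table, as do 8 of the 20 highest, while 2.85% of all 21402 such probe sets do. The other 5 were Garem1, Brd8, Pggt1b, Pcdhb9 and Rnf14. This look at the FVB arrays was chosen after the values were seen and carries no test. By the naming rule over 84 arrays the genes most like Fgf1 were Tnfaip8 (r = 0.648), Msl3 (0.644) and Rnf14 (0.622), and these arrays include those of FVB.

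Igf1, a growth factor for muscle, was read by 4 probe sets, and isoproterenol effects were not called at any. The nearest was 1437401_at in B6129SF2/J, from 3.48 through 3.80 to 4.43 untreated and from 3.84 through 4.57 to 5.34 treated, with 11 of 12 treated arrays above the untreated mean (0.63 ± 0.22, limma adjusted p = 0.0798). It was called in 8 of 16 alternatives, among them that without the failed array (0.035). At the other 3 Igf1 probe sets changes lay between −0.35 and 0.32.

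**Figure D4:**
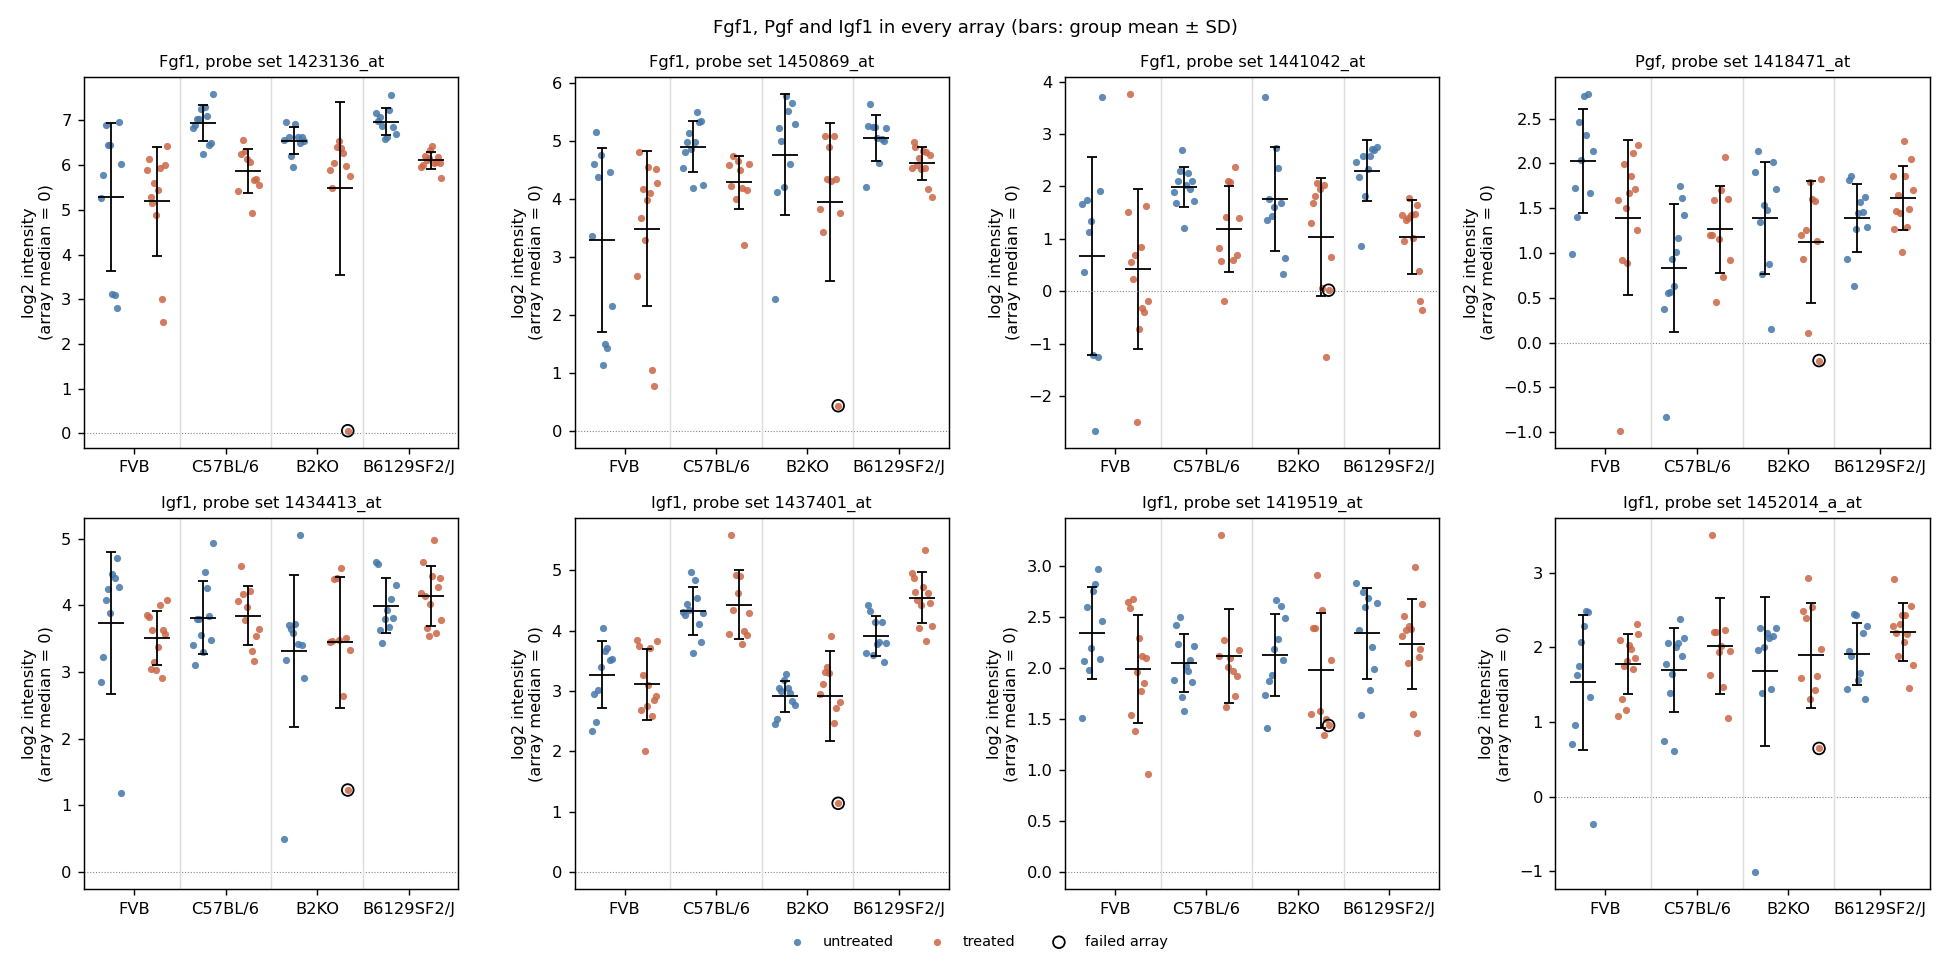
Log2 intensity of Fgf1 (3 probe sets), Pgf and Igf1 (4 probe sets) in every array, with group means ± SD. Fgf1 at 1423136_at sits lower after treatment in C57BL/6, B2KO and B6129SF2/J, 5 FVB arrays lie far below the rest, and Igf1 at 1437401_at is lowest in FVB and B2KO.

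Between untreated lines, 13 of 120 pairs of probe set and comparison were called. By comparison these were 7 for FVB against C57BL/6 (14.5% of all probe sets), 1 higher in FVB (6.17%) and 6 lower (8.29%). FVB had 3 against B6129SF2/J (7.26%), all lower in FVB (4.85%). C57BL/6 had 2 against B2KO (12.9%), both higher in C57BL/6 (6.18%), and B2KO had 1 against B6129SF2/J (5.89%), lower in B2KO (3.34%). None was called for FVB against B2KO (0.0402%) or C57BL/6 against B6129SF2/J (11.2%), where 4 and 3 members had an unadjusted limma p under 0.05. These comparisons share their untreated arrays. A sequence variant of a strain under a probe can also give a difference between untreated lines, and this was not tested. Each probe set is therefore given apart, and Apln and Pgf have no further probe set to compare.

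Fgf1 was lower in untreated FVB than in C57BL/6 at all 3 probe sets, by −1.65 ± 0.43 at 1423136_at (limma adjusted p = 0.00401), −1.61 ± 0.41 at 1450869_at (0.00346) and −1.32 ± 0.46 at 1441042_at (0.0397). Against B6129SF2/J the values were −1.68 ± 0.44, −1.76 ± 0.42 and −1.63 ± 0.47, all called. The medians at 1423136_at were 5.90 in FVB, 7.02 in C57BL/6, 6.59 in B2KO and 6.94 in B6129SF2/J. The low untreated FVB replicates 6, 7 and 8 described above enter all of these differences. Arrays were left out singly, so the differences without all 3 of them were not tested. At 1441042_at the difference from C57BL/6 was lost in 4 of 16 alternatives and without any of 9 single arrays (FVB replicates 2, 6, 7 and 8, C57BL/6 replicates 1, 3, 4, 5 and 8; adjusted p 0.051 to 0.151), and that from B6129SF2/J without FVB replicate 6, 7 or 8 (0.051 to 0.0809) or without the arrays with lung markers (0.0868).

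Igf1 at 1437401_at was highest in untreated C57BL/6, with arrays from 3.63 through 4.31 to 4.98. B6129SF2/J followed (3.48 through 3.80 to 4.43), then FVB (2.35 through 3.46 to 4.05) and B2KO (2.46 through 2.98 to 3.28). C57BL/6 exceeded B2KO by 1.41 ± 0.23 (limma adjusted p = 1.26e-06), and those groups did not overlap. FVB was below C57BL/6 (−1.06 ± 0.23, adjusted p = 0.00035) and B2KO below B6129SF2/J (−1.0 ± 0.23, adjusted p = 0.00203), the latter without overlap. The neighbours C57BL/6 and B6129SF2/J (0.41 ± 0.23), B6129SF2/J and FVB (−0.64 ± 0.23, FVB minus B6129SF2/J), and FVB and B2KO (0.36 ± 0.23) were not called. None of the other 3 Igf1 probe sets differed by the test between untreated lines.

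Pgf was higher in untreated FVB than in C57BL/6, from 0.99 through 2.09 to 2.78 against −0.84 through 0.94 to 1.75. The difference was 1.19 ± 0.27 (limma adjusted p = 0.000674), and all 10 FVB arrays were above the C57BL/6 mean. Vegfc at 1439766_x_at was lower in FVB than in C57BL/6 (−0.75 ± 0.26, adjusted p = 0.0402), a call that was lost in 3 of 16 alternatives and without any of 13 single arrays. The other Vegfc probe sets gave 0.34 ± 0.27 and 0.07 ± 0.25.

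Differences between the effects of 2 lines were called for 1 of 120 pairs, that of Apln between FVB and C57BL/6 (2.48% of all probe sets were called there, 1.16% with the higher effect in FVB). In the other 5 differences no member was called, with unadjusted limma p under 0.05 for 2 between FVB and B2KO (0% of all called), 3 between FVB and B6129SF2/J (0.0281%), 1 between C57BL/6 and B2KO (10.9%), 2 between C57BL/6 and B6129SF2/J (10.2%) and 1 between B2KO and B6129SF2/J (0.1%). A change called in 1 line and missed in another is therefore not shown to differ, save for Apln. That call was close to the threshold and was lost in some alternatives, as given above. Other alternatives called more differences, as counted in the closing section.

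The genes around the members were counted in lists, each gene by its brightest probe set, to be read against the shares of all probe sets called higher and lower: 0.627% and 0.514% in FVB, 13.3% and 9.89% in C57BL/6, and 2.35% and 2.7% in B6129SF2/J. Of 14 receptor genes, C57BL/6 had 3 higher (13.3% of all probe sets): Tie1 (1.05 ± 0.31), the partner of the angiopoietin receptor, Kdr (0.76 ± 0.29), the main VEGF receptor, and Fgfr1 (0.73 ± 0.27). In FVB, B2KO and B6129SF2/J none was called by limma, with 2, 3 and 1 at an unadjusted p under 0.05. The list's median was 0.12 in C57BL/6, beside 0.08 for all probe sets.

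Of 18 related ligands and binding proteins, C57BL/6 had 5 higher (13.3% of all) and 1 lower (9.89%), with a list median of −0.05 beside 0.08 for all probe sets. The IGF binding proteins Igfbp6 (1.30 ± 0.33), Igfbp7 (1.28 ± 0.28) and Igfbp4 (1.16 ± 0.31) rose, as did Vegfd (1.14 ± 0.27), a lymphatic ligand, and Pdgfc fell (−0.82 ± 0.23). Hbegf, a ligand of the EGF receptor, fell in FVB (−1.14 ± 0.29, adjusted p = 0.0235). In B6129SF2/J Angptl4, an inhibitor of lipoprotein lipase, fell (−1.52 ± 0.36), as did Fgf13 (−0.64 ± 0.20). B2KO had no call in this list, with 6 at an unadjusted p under 0.05.

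Of 14 genes of the hypoxia response, 1 rose in FVB (0.627% of all probe sets), 4 in C57BL/6 (13.3%) and 3 in B6129SF2/J (2.35%). None of the 14 was called lower, and 10 to 13 of them were not called in each of these lines. Egln3, an oxygen sensor and target of the hypoxia-inducible factors, rose by 1.10 ± 0.27 in FVB, 1.79 ± 0.28 in C57BL/6 and 1.71 ± 0.27 in B6129SF2/J. Ldha (0.97 ± 0.37), P4ha1 (0.85 ± 0.31) and Bnip3 (0.81 ± 0.24) rose in C57BL/6, and Ankrd37 (1.42 ± 0.28) and Ndrg1 (0.72 ± 0.21) in B6129SF2/J. B2KO had no call, with 3 at an unadjusted p under 0.05. The list's median was 0.51 in C57BL/6, 0.15 in B6129SF2/J and 0.13 in FVB, beside 0.08, −0.01 and −0.01 for all probe sets. Vegfa, of the same textbook group, was not called in these lines.

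Of 8 inhibitors of vessel growth, 3 rose in C57BL/6 (13.3% of all probe sets) and 5 were not called. Those that rose were the matrix proteins Thbs1 (1.65 ± 0.39) and Col18a1 (1.04 ± 0.22) and the protease Adamts1 (0.78 ± 0.28). The list's median was 0.74 there, beside 0.08 for all probe sets, and no member was called in FVB, B2KO or B6129SF2/J, with 3, 1 and 2 at an unadjusted p under 0.05. Of 12 genes of Notch and endothelial signalling, Klf2, a flow-responsive factor, rose in C57BL/6 (0.85 ± 0.31), and Hey1 (1.27 ± 0.27) and Jag1 (0.74 ± 0.21) rose in B6129SF2/J, with no call in FVB or B2KO (1 and 1 at an unadjusted p under 0.05). Mural markers gave Rgs5 (0.73 ± 0.26) and Acta2 (0.71 ± 0.21) of 6 higher in C57BL/6, and Acta2 (0.67 ± 0.21) in B6129SF2/J. Fibroblast markers gave Col1a1 (1.50 ± 0.44) and Col1a2 (1.18 ± 0.34) of 5 higher in C57BL/6 (13.3% of all probe sets), with a list median of 0.63. In B6129SF2/J the fibroblast median was 0.78 and no marker was called by limma, with 4 of 5 at an unadjusted p under 0.05.

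**Figure D5:**
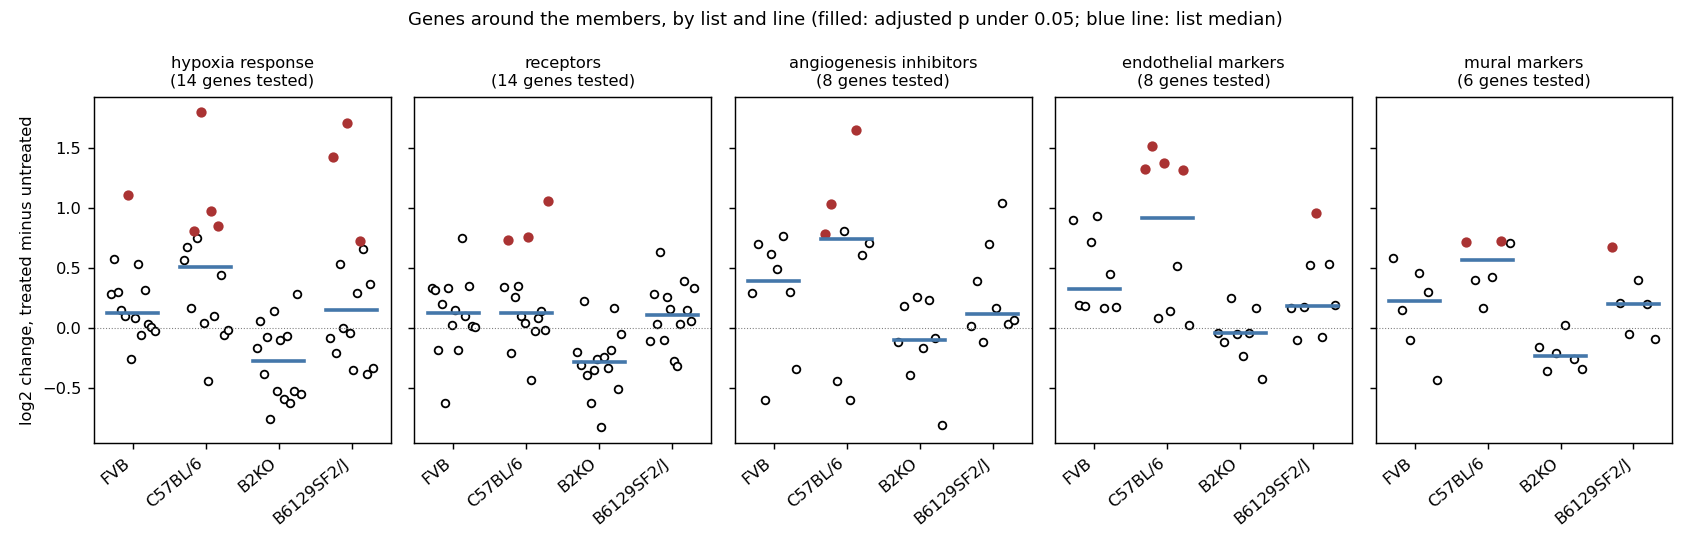
Log2 change after isoproterenol of each gene in 5 lists, by line. Each point is a gene, filled where the adjusted p passed, and the blue line is the list's median. The filled points lie mostly in C57BL/6, where 23.2% of all probe sets were called, and none lies in B2KO.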

How the data were processed

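Per the submitters' processing notes, the arrays were summarised by GCRMA, with no version given. The deposited values are linear intensities, and every array has a median of 1. Log2 of the value was taken here.

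Probe sets were named by the platform's annotation: 34945 carry 1 symbol, 932 several and 9160 none, and 64 are controls. A probe set was tested where its highest group mean was above log2 0, which kept 24885. Treated B2KO replicates 4 and 9 were nearly identical (r = 0.99999976, next pair 0.982). Their mean was counted once, so 85 arrays entered the fit.

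limma 3.58.1 in R 4.3.3 fitted the 8 groups at once, with two-sided tests adjusted by Benjamini-Hochberg within each of 17 comparisons. The script was tested on simulated data. Arrays limit the precision by their number.

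The members and lists were chosen with earlier results of these data known. Named were every member probe set, up to 4 called genes per list and line, and the 3 genes most like a member called on average. Alternatives are given in the closing section.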

Additional observations from a re-analysis of the deposited data

Results flagged for a closer look

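Of 105 groups of 4 to 10 arrays examined at the member probe sets, 28 held an array far from the others, where chance flags about 1 in 20 groups. Larger groups were not examined: treated FVB and treated B6129SF2/J with 12 arrays each, and untreated C57BL/6 with 11. An array of these groups could therefore not be flagged. The failed array, treated B2KO replicate 10, gave 10 of these. It was lowest for Angpt1 1439066_at (0.101), Vegfa 1420909_at (2.18) and 1451959_a_at (0.334), Vegfb 1451803_a_at (0.0209), Vegfc 1419417_at (0.367), Fgf1 1423136_at (0.0616) and 1450869_at (0.431), Apln 1451038_at (−0.086), Pdgfb 1450414_at (−0.408) and Igf1 1437401_at (1.14).

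Untreated B2KO replicate 8, with a Gapdh difference of 7.31 log2 units, stood apart at 6 probe sets. It was low for Vegfb 1451803_a_at (1.06), Pdgfb 1450413_at (−1.0) and Pdgfb 1450414_at (−0.637), and high for all 3 Vegfc probe sets: 1419417_at (4.66), 1439766_x_at (4.25) and 1440739_at (4.12). Untreated B2KO replicate 1, the array with Xist, was low for Vegfa 1420909_at (4.06), Fgf1 1450869_at (2.28), Igf1 1434413_at (0.493) and Igf1 1452014_a_at (−1.01). Untreated FVB replicate 10, another array with a Gapdh difference above 2, was low for Pdgfb 1450413_at (−0.181) and Igf1 1434413_at (1.18).

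In treated C57BL/6, replicate 2 was high for Igf1 1419519_at (3.30) and 1452014_a_at (3.50) and for Angpt2 1459636_at (0.666), and replicate 8 was low for Angpt1 1421441_at (−1.82) and Fgf1 1450869_at (3.21). Untreated B6129SF2/J replicate 3 was low for Fgf1 1441042_at (0.865).

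The effect of isoproterenol on Apln differed between FVB and C57BL/6 by 1.48 log2 units, by the test of the difference itself. Some alternatives lost this call.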

How the results depend on the processing

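The count of member probe sets called was, as reported, 2 in FVB, 3 in C57BL/6, 1 in B2KO, 1 in B6129SF2/J, 6 averaged over lines, 1 for differences and 13 for untreated lines, and no called change reversed its sign in an alternative. Fitting lines alone gave 1, 6, 0 and 7 in the 4 lines and 4 differences. In B2KO alone limma called 0 of all 24885 probe sets, and 1 member had an unadjusted p under 0.05. Array weights gave 4, 6, 2 and 7 in the lines, 10 differences and 32 untreated calls. Without the 8 arrays in doubt the counts were 4 in FVB, 6 in C57BL/6, 3 in B6129SF2/J and 6 differences, without 3 arrays 3 in B6129SF2/J, and without the failed array 2 there. Without the 5 arrays nearer another line B6129SF2/J had 3, and without the 7 arrays with lung markers FVB had 1 and no difference was called (6 of 120 pairs had an unadjusted limma p under 0.05). Without the array with Xist every count stayed within 1 of that reported. Quantile normalization and the floor at log2 0 each gave 2 in B6129SF2/J. Centring on the tested probe sets gave 2 in B6129SF2/J, 3 differences and 20 untreated calls. With 1 probe set per gene the averaged effect had 3 and the untreated lines 5. Without a filter no difference was called (11 of 126 pairs had an unadjusted limma p under 0.05). Leaving out 1 array at a time gave 1 to 2 in FVB, 3 to 4 in C57BL/6, 1 to 1 in B2KO and in B6129SF2/J, 5 to 7 averaged, 0 to 3 differences and 10 to 16 untreated calls.

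The labels number replicates within groups. Samples of 1 number did not pair: correlations of same-numbered arrays ran from −0.383 to 0.322. With the number as a random replicate block (consensus correlation 0.00223) all 7 counts stayed as reported: 2, 3, 1, 1, 6, 1 and 13. The trend and robust moderation, the stricter filter and the duplicate kept as its own sample also left the 7 counts as they were.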
